A study of Homo sapiens with 35 samples.

Results

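The genes described here are 8 genes of interleukin 1 (IL1) signalling and prostaglandin synthesis in DU145, an established human line of prostate cancer that was grown from a metastasis in the brain. They were taken by name from the deposited RNA sequencing table, in which 8 of 28503 rows carry the names IL1A, IL1B, IL18, IL1R1, IL1RAP, PTGS1, PTGS2 and PTGES. Cells carried a short hairpin RNA against ZMYND8 (shZMYND8), against JARID1D (shJARID1D) or against luciferase (shLuciferase, the control), and each group had 2 libraries, 6 in all. ZMYND8 binds modified histone tails, and JARID1D, encoded by KDM5D, is a histone demethylase. The labels give a single hairpin treatment per group, name no added cytokine or drug for any group, and do not state whether replicate libraries came from different cultures. The p-values therefore measure only how much these libraries spread, and that spread may be technical. In RNA from a whole culture, fewer expressing cells and less RNA per cell cannot be told apart.

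IL1A and IL1B are the ligands that activate the IL1 receptor. IL1R1 binds the ligand, IL1RAP joins it as the accessory chain that starts signalling, and the adaptor MYD88 and the IRAK kinases pass the signal on to NF-kB and the MAP kinases. IL18 is a related cytokine with receptor chains of its own. Prostaglandins are made from arachidonic acid, which phospholipases release from membranes. The cyclooxygenases PTGS1, the constitutive form, and PTGS2, the inducible form, turn it into prostaglandin H2, which PTGES converts to prostaglandin E2. In many cell types IL1 raises PTGS2 and PTGES, and prostaglandin E2 is known for roles in inflammation and in tumour growth.

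The deposited counts summed to 22925611 to 25001300 per library. ZMYND8 was at 35.5 and 33.2 CPM (counts normalised for library depth) in the shZMYND8 libraries, 69.7 and 63.7 CPM in the shJARID1D libraries and 64.7 and 52.7 CPM in the shLuciferase libraries. KDM5D was at 19.6 and 17.9 CPM in the shJARID1D libraries, 55.5 and 59.9 CPM in the shZMYND8 libraries and 58.1 and 61.0 CPM in the shLuciferase libraries. Both targets were lowest under their own hairpin. By the edgeR test that is used below, ZMYND8 fell 1.71-fold under shZMYND8 over shLuciferase (adjusted p = 0.00491). That call was lost without shZMYND8 replicate 2. KDM5D fell 3.18-fold under shJARID1D over shLuciferase (adjusted p = 0.000831), and its call held without any single library. Of 7 epithelial genes only KRT5 was at 0 in every library, and the list summed to 2181 to 2260 CPM under shZMYND8, 1646 to 1884 CPM under shJARID1D and 2358 to 3366 CPM under shLuciferase. Single genes of it passed the test that is used below: in shZMYND8 over shLuciferase the log2 fold change was -1.68 for EPCAM (edgeR adjusted p = 0.000546), -1.16 for KRT19 (adjusted p = 0.00184) and 1.01 for CDH1 (adjusted p = 0.013, lost without either shZMYND8 library). Under shJARID1D over shLuciferase KRT7, KRT18 and KRT8 were lower, at -0.82 (adjusted p = 0.0256), -0.67 (adjusted p = 0.0349) and -0.86 (adjusted p = 0.0465), and none of these 3 held without either shJARID1D library. The prostate luminal genes KLK2 and FOLH1 were at 0 in all 6 libraries. Among 12 blood cell markers CD3E, MS4A1 and TYROBP were at 0 throughout, and PTPRC reached at most 0.0395 CPM. The blood cell list summed to 47.5 to 59.0 CPM under shZMYND8, 46.8 to 46.9 CPM under shJARID1D and 37.1 to 43.2 CPM under shLuciferase, most of it CD68, which was at 34.8 to 55.4 CPM. Fibroblast and endothelial markers, 8 genes with DCN at 0 throughout, summed to 6.28 to 6.57 CPM, 2.68 to 3.83 CPM and 1.54 to 2.41 CPM in the same order of groups. The part of these marker genes in the results below was not tested.

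The promoters of the 3 genes that passed the test against shLuciferase under at least 1 hairpin, IL1RAP, PTGES and PTGS2, are given for reference to the regions upstream of these genes. Each is the 250 bases before the RefSeq start on build GRCh38.p14, read 5′ to 3′ on the strand of the gene. IL1RAP lies at chr3:190513835-190514084 on the plus strand, PTGES at chr9:129753043-129753292 on the minus strand and PTGS2 at chr1:186680424-186680673 on the minus strand. Capitals mark matches to TATAAA (the TATA box), TGANTCA (the AP-1 site) and TGACG (the core of the site bound by CREB family factors). Matches to GGGRNWYYCC (the NF-kB consensus) were marked in the same way. Both strands were searched, with N for any base, R for A or G, W for A or T and Y for C or T.
IL1RAP: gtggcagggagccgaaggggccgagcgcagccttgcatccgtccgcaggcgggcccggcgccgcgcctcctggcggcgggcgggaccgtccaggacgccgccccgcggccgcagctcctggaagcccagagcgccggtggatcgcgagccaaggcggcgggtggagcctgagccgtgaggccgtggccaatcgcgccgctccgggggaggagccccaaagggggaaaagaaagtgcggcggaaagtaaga
PTGES: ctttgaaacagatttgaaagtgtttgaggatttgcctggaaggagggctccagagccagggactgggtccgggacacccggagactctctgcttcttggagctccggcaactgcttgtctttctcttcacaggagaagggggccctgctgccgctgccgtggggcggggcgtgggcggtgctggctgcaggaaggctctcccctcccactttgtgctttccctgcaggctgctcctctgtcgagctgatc
PTGS2: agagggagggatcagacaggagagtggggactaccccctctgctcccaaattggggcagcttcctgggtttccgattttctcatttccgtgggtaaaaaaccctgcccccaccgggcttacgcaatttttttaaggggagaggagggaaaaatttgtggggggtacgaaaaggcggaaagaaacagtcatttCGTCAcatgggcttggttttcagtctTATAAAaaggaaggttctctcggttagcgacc
The PTGS2 window held a TATAAA match from -32 to -27 relative to the start and a TGACG match on the opposite strand from -58 to -54, and these did not overlap. No listed motif was found in the IL1RAP or PTGES window, which says only that these letters are not in these 250 bases. The same limit holds for the AP-1 and NF-kB patterns, which were not matched in the PTGS2 window. Sites that depart from the pattern by a base are missed. Among 27303 RefSeq promoters of the same length, 11.1% held TATAAA, 21.7% TGACG, 6.60% TGANTCA and 5.05% the NF-kB consensus. GC content was 74.8% for IL1RAP, 61.2% for PTGES and 50.4% for PTGS2, against a median of 58.0% over all these promoters. For 7 of the 8 genes the RefSeq table holds a promoter. Of the other matched genes, IL1A held TATAAA from -239 to -234, TGACG from -76 to -72 and TGANTCA from -12 to -6. PTGS1 held TATAAA on the opposite strand from -208 to -203, and IL1B and IL1R1 held none of the motifs. The TATAAA matches of IL1A and PTGS1 lie much farther from the start than that of PTGS2 and are matches of letters only.

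The ligands of the IL1 receptor were barely detected in any library. IL1A, a ligand that is active from within or at the surface of cells, had 0 and 4 fragments in the shZMYND8 libraries, 1 and 2 in the shJARID1D libraries and 1 and 2 in the shLuciferase libraries. The groups overlapped, and the highest IL1A value was 0.151 CPM. IL1B, the ligand that is cut and secreted, had 3 and 0 fragments under shZMYND8, 0 and 0 under shJARID1D and 1 and 0 under shLuciferase. Because 0 fragments in a library allow a level of up to 0.113 to 0.149 CPM (3 fragments, counting error only), no difference in either ligand was detectable at this depth. IL18 was the only one of the 3 cytokines with enough counts to be tested. It was at 37.3 and 40.1 CPM in the shZMYND8 libraries, 40.3 and 44.7 CPM in the shJARID1D libraries and 40.02 and 39.99 CPM in the shLuciferase libraries. All 6 values lay close together, and the 2 shLuciferase libraries fell inside the shZMYND8 range. The log2 fold change of IL18 was -0.05 ± 0.12 (SE of the fit) for shZMYND8 over shLuciferase, 0.09 ± 0.12 for shJARID1D over shLuciferase and -0.14 ± 0.12 for shZMYND8 over shJARID1D. The quasi-likelihood test of edgeR, adjusted by Benjamini-Hochberg over 15867 genes, gave adjusted p-values of 0.824, 0.704 and 0.474 for these, so IL18 did not pass the threshold of 0.05 in any comparison. Adjusted p-values below come from that same test, and ± after a log2 fold change is always the SE.

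**Figure D1:**
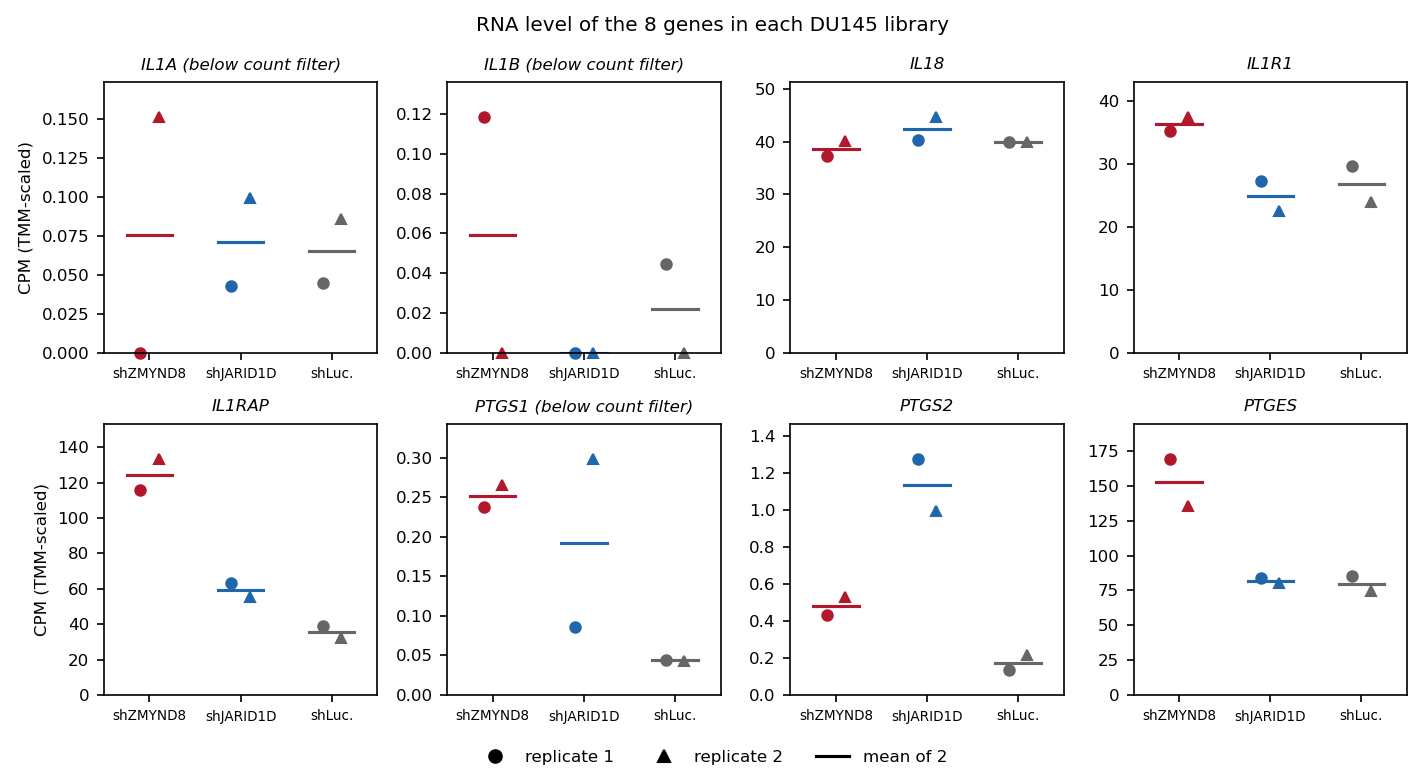
CPM of the 8 genes in each library, with a panel per gene, a linear axis of its own starting at 0 in each panel and the shZMYND8, shJARID1D and shLuciferase groups from left to right. Circles and triangles are replicates 1 and 2 and the line is their mean; IL1RAP was highest under shZMYND8, at 115.7 and 133.4 CPM, and PTGS2 under shJARID1D, at 1.28 and 0.994 CPM.

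IL1RAP showed the largest change among the 5 genes with enough counts to be tested against shLuciferase under shZMYND8. It was at 115.7 and 133.4 CPM in the shZMYND8 libraries, 63.0 and 55.2 CPM in the shJARID1D libraries and 38.9 and 32.1 CPM in the shLuciferase libraries. The 3 groups did not overlap, and the order was shZMYND8, then shJARID1D, then shLuciferase. Group means were 125 ± 12.5 CPM, 59.1 ± 5.5 CPM and 35.5 ± 4.81 CPM in that order (SD, n = 2 each). These values rest on 2928 and 3525 fragments under shZMYND8, 1479 and 1111 under shJARID1D and 873 and 748 under shLuciferase. IL1RAP rose 3.51-fold under shZMYND8 over shLuciferase, a log2 fold change of 1.81 ± 0.14 with an adjusted p of 0.000349, the 9th smallest p of the 15867 genes. Under shJARID1D over shLuciferase it rose 1.66-fold, a log2 fold change of 0.74 ± 0.14 with an adjusted p of 0.0214. These 2 comparisons share the shLuciferase libraries. In the direct comparison IL1RAP was 2.11-fold higher under shZMYND8 than under shJARID1D, a log2 fold change of 1.07 ± 0.14 with an adjusted p of 0.00182. Without any single library the changes under shZMYND8 held, at adjusted p-values up to 0.0031 over shLuciferase and up to 0.028 over shJARID1D. The call under shJARID1D was lost without shJARID1D replicate 1 (adjusted p = 0.177) and without shJARID1D replicate 2 (adjusted p = 0.0859), and without the filter on low counts its adjusted p was 0.0611. The IL1RAP locus overlaps the pseudogenes GCNT1P3 and RN7SKP296 in RefSeq, and the sources used here do not give how reads in such overlaps were assigned.

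IL1R1, the chain that binds the ligand, moved less than its partner. It was at 35.3 and 37.5 CPM in the shZMYND8 libraries, 27.3 and 22.5 CPM in the shJARID1D libraries and 29.8 and 24.0 CPM in the shLuciferase libraries. Both shZMYND8 libraries lay above the other 4, while the shJARID1D and shLuciferase libraries overlapped. Means were 36.4 ± 1.53 CPM, 24.9 ± 3.39 CPM and 26.9 ± 4.06 CPM in the same order (SD, n = 2 each). The log2 fold change was 0.44 ± 0.15 for shZMYND8 over shLuciferase, with an adjusted p of 0.0734. Without shLuciferase replicate 1 the value was 0.60 and passed the threshold, at an adjusted p of 0.0185. For shJARID1D over shLuciferase it was -0.11 ± 0.15, with an adjusted p of 0.705. IL1R1 was 1.46-fold higher under shZMYND8 than under shJARID1D, a log2 fold change of 0.55 ± 0.15 with an adjusted p of 0.0355. That call was lost without any of the 4 libraries compared, at adjusted p-values of 0.135 without shZMYND8 replicate 1, 0.199 without shZMYND8 replicate 2, 0.0771 without shJARID1D replicate 1 and 0.266 without shJARID1D replicate 2, and also with library totals only (0.0613) and without the filter on low counts (0.0776). RefSeq places an antisense RNA, IL1R1-AS1, over IL1R1, and because the sources used here do not give the strand of the reads, fragments of the pair cannot be told apart.

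The 2 cyclooxygenase genes were low throughout. PTGS1 had 6 and 7 fragments in the shZMYND8 libraries, 2 and 6 in the shJARID1D libraries and 1 and 1 in the shLuciferase libraries, which is at most 0.298 CPM. It had too few counts to enter the test. Summed over the group and scaled for depth, 13 fragments under shZMYND8 against 2 under shLuciferase gave a ratio of 5.93 with a 95% interval of 1.34 to 54.1. For shJARID1D, 8 fragments against the same 2 gave a ratio of 4.45 with an interval of 0.887 to 43.0. These intervals cover counting error only, and in a fit without the filter on low counts the adjusted p of PTGS1 was 0.195 under shZMYND8 and 0.375 under shJARID1D. PTGS2 was at 0.435 and 0.530 CPM in the shZMYND8 libraries, 1.28 and 0.994 CPM in the shJARID1D libraries and 0.134 and 0.215 CPM in the shLuciferase libraries. The groups did not overlap, and for this gene the order was shJARID1D, then shZMYND8, then shLuciferase. The underlying fragments were 11 and 14 under shZMYND8, 30 and 20 under shJARID1D and 3 and 5 under shLuciferase. PTGS2 passed the filter on low counts through the shZMYND8 and shJARID1D libraries, where it is higher. Its fitted log2 fold change under shJARID1D over shLuciferase was 2.69 ± 0.52, or 6.48-fold, with an adjusted p of 0.0221. A ratio of summed fragments, 50 against 8, gave 6.95 with a counting interval of 3.27 to 17.0. That call was lost without shZMYND8 replicate 1 (adjusted p = 0.0503), shZMYND8 replicate 2 (0.0532), shJARID1D replicate 1 (0.165) or shJARID1D replicate 2 (0.0872), and without the filter (0.0542). Under shZMYND8 over shLuciferase PTGS2 had a log2 fold change of 1.44 ± 0.57 and an adjusted p of 0.118, and its ratio of 25 against 8 fragments was 2.85 with an interval of 1.25 to 7.31. In the direct comparison of shZMYND8 over shJARID1D the log2 fold change was -1.26 ± 0.44 with an adjusted p of 0.081, and the adjusted p was 0.0483 when only these groups were fitted.

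PTGES, the terminal synthase of prostaglandin E2, was higher in the shZMYND8 libraries. It was at 169.3 and 135.8 CPM in the shZMYND8 libraries, 84.0 and 79.98 CPM in the shJARID1D libraries and 85.0 and 74.8 CPM in the shLuciferase libraries. Both shZMYND8 libraries exceeded all 4 others, and the shJARID1D values lay within the shLuciferase range. Means were 153 ± 23.7 CPM, 82.0 ± 2.82 CPM and 79.9 ± 7.23 CPM in that order (SD, n = 2 each). PTGES rose 1.91-fold under shZMYND8 over shLuciferase, a log2 fold change of 0.93 ± 0.14 with an adjusted p of 0.00237. It was 1.86-fold higher under shZMYND8 than under shJARID1D, a log2 fold change of 0.90 ± 0.14 with an adjusted p of 0.00354. Under shJARID1D over shLuciferase the value was 0.04 ± 0.14, with an adjusted p of 0.899. Leaving out any single library kept both calls, at adjusted p-values up to 0.0347 over shLuciferase and up to 0.0454 over shJARID1D.

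**Figure D2:**
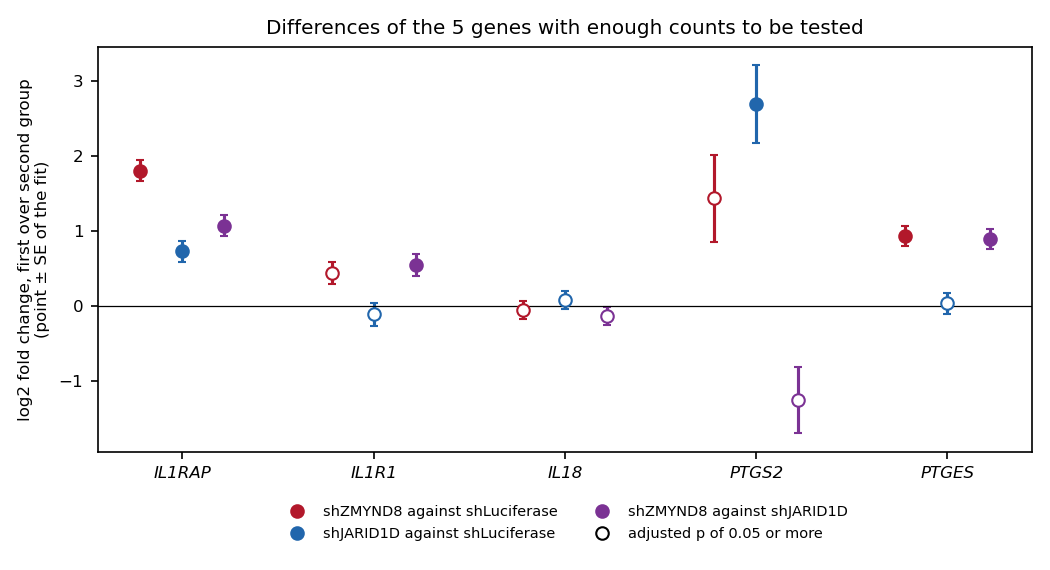
Log2 fold changes of the 5 tested genes (points) with the SE of the fit (bars) for shZMYND8 over shLuciferase, shJARID1D over shLuciferase and shZMYND8 over shJARID1D; filled points passed the adjusted p of 0.05. IL1RAP passed in all 3 comparisons, PTGES in the 2 with shZMYND8, PTGS2 in shJARID1D over shLuciferase and IL1R1 in shZMYND8 over shJARID1D.

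Counted over the 8 genes, 5 had enough counts to be tested and IL1A, IL1B and PTGS1 did not. For shZMYND8 over shLuciferase 2 of the 5 passed, IL1RAP and PTGES, and both rose, while 16.2% of all genes tested passed, 8.89% higher and 7.34% lower. For shJARID1D over shLuciferase 2 of the 5 passed, IL1RAP and PTGS2, and both rose, while 5.75% of all genes tested passed, 2.96% higher and 2.79% lower. In shZMYND8 over shJARID1D 3 of the 5 passed, IL1RAP, PTGES and IL1R1, all of them higher under shZMYND8, while 15.7% of all genes tested passed, 8.67% higher and 7.02% lower. The median log2 fold change of all tested genes was -0.01 for shZMYND8 over shLuciferase and 0.00 in the other 2 comparisons. The 2 libraries of the groups compared did not overlap for 4 of the 5 genes in shZMYND8 over shLuciferase (IL1R1, IL1RAP, PTGS2 and PTGES, all higher), while this held for 57.7% of all genes tested, 29.7% higher and 28% lower. For shJARID1D over shLuciferase it held for 3 of the 5 (IL18, IL1RAP and PTGS2, all higher) and for 51.7% of all genes tested, 26.5% higher and 25.2% lower. For shZMYND8 over shJARID1D it held for 5 of the 5, with IL1R1, IL1RAP and PTGES higher and IL18 and PTGS2 lower, and for 65.3% of all genes tested, 32.7% higher and 32.5% lower. With 5 genes, of which PTGS2 entered through the groups where it is higher, these counts are a description of the genes named and nothing particular to the pathway was read from them.

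**Figure D3:**
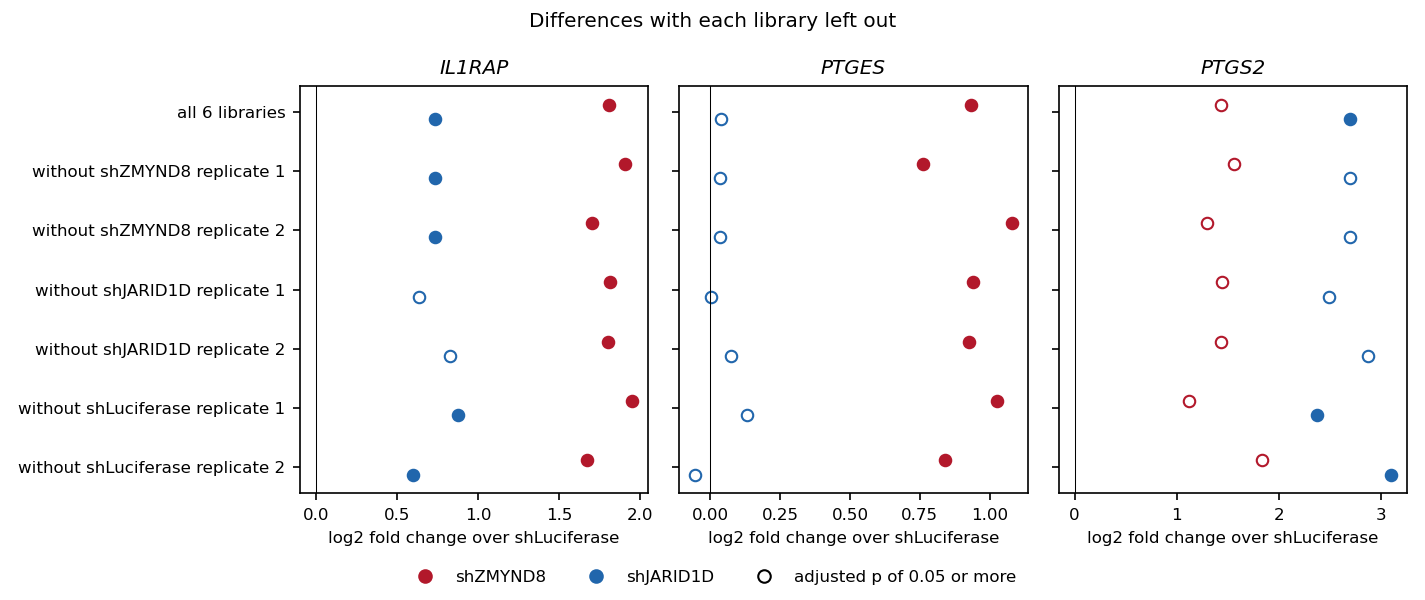
Log2 fold changes of IL1RAP, PTGES and PTGS2 (a panel each) for shZMYND8 over shLuciferase (red) and shJARID1D over shLuciferase (blue), from all 6 libraries in the top line and with each library left out in turn in the lines under it. Filled points have an adjusted p under 0.05; IL1RAP stayed between 1.67 and 1.95 for shZMYND8 over shLuciferase, and PTGS2 between 2.38 and 3.10 for shJARID1D over shLuciferase.

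Genes around these 8 were described with lists of the pathway's ligands, receptors, signal carriers, processing enzymes, response genes and lipid enzymes. Of 12 IL1 family ligands and antagonists, 2 had enough counts, and neither passed under shZMYND8 or shJARID1D over shLuciferase. Between the hairpins, in shZMYND8 over shJARID1D, IL18BP, a secreted inhibitor of IL18, was higher, with a log2 fold change of 0.92 ± 0.26 and an adjusted p of 0.0391, lost without any of the 4 libraries compared (up to 0.301). The antagonist IL1RN had 6 and 8 fragments under shZMYND8, 12 and 8 under shJARID1D and 4 and 1 under shLuciferase. IL33, an alarmin of the family, had a single fragment in the 6 libraries, in shJARID1D replicate 1. IL1R2, the decoy receptor, had 3 and 1 fragments under shZMYND8, 1 and 1 under shJARID1D and 5 and 2 under shLuciferase. All 3 were below the filter. Among 10 family receptors 5 were tested, and only IL1RAP passed over shLuciferase under either hairpin. Of all genes tested, 16.2% passed under shZMYND8 and 5.75% under shJARID1D over shLuciferase, and 15.7% in shZMYND8 over shJARID1D.

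The 21 genes of IL1 receptor signal transduction were all tested, and 4 rose and none fell in shZMYND8 over shLuciferase, with a median log2 fold change of -0.01. That share is near the 16.2% of all genes tested that passed. The counts given below for the other comparisons are also near the shares of all genes tested. Those shares were 5.75% in shJARID1D over shLuciferase and 15.7% in shZMYND8 over shJARID1D. IRAK2, a kinase of the receptor complex, rose with a log2 fold change of 0.84 ± 0.11 and an adjusted p of 0.00145. MYD88 rose by 0.81 ± 0.21 on the log2 scale with an adjusted p of 0.0261, and was at 24.5 and 16.0 CPM in the shZMYND8 libraries, 13.2 and 10.6 CPM in the shJARID1D libraries and 11.5 and 11.5 CPM in the shLuciferase libraries. MAP3K8, a kinase upstream of ERK, rose by 0.74 ± 0.19 with an adjusted p of 0.0284. The MYD88 call was lost without shZMYND8 replicate 1 (adjusted p = 0.257), the MAP3K8 call also without shLuciferase replicate 2 (adjusted p up to 0.27), and without shZMYND8 replicate 1 a single gene of the list passed. Under shJARID1D over shLuciferase 1 gene rose, TOLLIP, an inhibitor of the pathway, by 0.69 ± 0.17 with an adjusted p of 0.0461 (lost without any library but shLuciferase replicate 2, at up to 0.224), and MYD88 had a value of 0.05 ± 0.21 with an adjusted p of 0.918. In shZMYND8 over shJARID1D 2 genes were higher, IRAK2 and MYD88, and PELI1, a ubiquitin ligase of the complex, was lower, at -0.76 ± 0.19 with an adjusted p of 0.0272. Without shZMYND8 replicate 1 or either shJARID1D library, none of these 3 calls held, at adjusted p-values up to 0.284.

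Of 20 genes that process and release IL1 and IL18, 16 were tested. In shZMYND8 over shLuciferase 6 rose, 1 fell and 9 did not pass, with a median of 0.45, beside 16.2% of all genes tested that passed. The share of all genes was 5.75% in shJARID1D over shLuciferase and 15.7% in shZMYND8 over shJARID1D. CASP1, the protease that cuts pro-IL1B and pro-IL18, was at 3.48 and 1.63 CPM in the shZMYND8 libraries, 0.809 and 0.497 CPM in the shJARID1D libraries and 0.312 and 0.0858 CPM in the shLuciferase libraries. These are 88 and 43 fragments under shZMYND8, 19 and 10 under shJARID1D and 7 and 2 under shLuciferase. The groups did not overlap, and the fitted log2 fold change was 3.69 ± 0.61 for shZMYND8 over shLuciferase, with an adjusted p of 0.00387. NLRP3, the sensor of the inflammasome that activates CASP1, had 32 and 36 fragments under shZMYND8, 1 and 6 under shJARID1D and 5 and 5 under shLuciferase. Its fitted log2 fold change was 2.61 ± 0.59 for shZMYND8 over shLuciferase, with an adjusted p of 0.0162. NLRP3 passed the filter on low counts only through the shZMYND8 libraries, where it is higher. CASP1 and MEFV, another of the 6 that rose, passed it through the shZMYND8 and shJARID1D libraries, where they are higher. The count of 6 therefore includes genes whose entry into the test depended on the direction of their change. NINJ1, which ruptures the membrane of dying cells, rose by 1.27 ± 0.13 with an adjusted p of 0.000619. S100A13, which takes part in the release of IL1A, fell by 0.89 ± 0.12 on the log2 scale with an adjusted p of 0.00155. Leaving out shZMYND8 replicate 1 left 1 higher and 1 lower gene in this list, and the CASP1 value then had an adjusted p of 0.0516. The NLRP3 call was lost without either shZMYND8 library, at adjusted p-values up to 0.107. In shJARID1D over shLuciferase 3 rose and none fell, NINJ1 by 0.75 ± 0.13 (adjusted p = 0.018), CASP4 by 0.86 ± 0.19 (adjusted p = 0.0317) and NLRP1 by 0.84 ± 0.21 (adjusted p = 0.0488), and the median was 0.21. None of these 3 held without either shJARID1D library, at adjusted p-values up to 0.3. CASP1 there had a value of 1.76 ± 0.69 with an adjusted p of 0.159, and NLRP3 -0.31 ± 0.79 with an adjusted p of 0.851. In shZMYND8 over shJARID1D 3 were higher and 1 was lower, and the 3 became 0 without either shZMYND8 library or shJARID1D replicate 1, and 1 without shJARID1D replicate 2.

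Response genes of IL1, that is targets which IL1 is known to raise in other cells, were the list with the most calls in shZMYND8 over shLuciferase. Of 18 tested of 20, 12 rose and none fell, with a median of 0.86 against -0.01 over all tested genes. Of all genes tested 8.89% rose and 7.34% fell. In shJARID1D over shLuciferase 5.75% of all genes tested passed, and in shZMYND8 over shJARID1D 15.7%. The lists were chosen with earlier results of these data known, so the count only describes the genes named. IL6 was at 80.7 and 58.3 CPM in the shZMYND8 libraries, 26.6 and 24.6 CPM in the shJARID1D libraries and 20.6 and 12.02 CPM in the shLuciferase libraries, and rose by 2.09 ± 0.24 over shLuciferase with an adjusted p of 0.000806. BIRC3, an inhibitor of apoptosis and NF-kB target, was at 745 and 750 CPM under shZMYND8, 208 and 202 CPM under shJARID1D and 374 and 292 CPM under shLuciferase. The shZMYND8 libraries were highest and the shJARID1D libraries lowest for BIRC3, with log2 fold changes over the shared shLuciferase libraries of 1.17 ± 0.14 for shZMYND8 (adjusted p = 0.000909) and -0.70 ± 0.14 for shJARID1D (adjusted p = 0.0227). SOD2, the mitochondrial superoxide dismutase, rose by 1.45 ± 0.18 under shZMYND8 with an adjusted p of 0.00104. Under shJARID1D 1 gene rose over shLuciferase, RELB, an NF-kB subunit, by 0.86 ± 0.18 (adjusted p = 0.029), and 1 fell, BIRC3, with a median of 0.51. Neither passed without the filter on low counts, and RELB did not pass when only the groups compared were fitted. Both calls were lost without either shJARID1D library, RELB also without either shZMYND8 library and BIRC3 also without shZMYND8 replicate 2. With a library left out the log2 fold change ran from 0.60 to 1.17 for RELB and from -0.87 to -0.51 for BIRC3. In shZMYND8 over shJARID1D 7 were higher and 1 was lower, led by BIRC3 at 1.87 ± 0.14 (adjusted p = 0.000269), while the chemokine CXCL5 was lower at -1.17 ± 0.22 (adjusted p = 0.0081, lost without either shZMYND8 library or shJARID1D replicate 2, at up to 0.0738). Leaving out shZMYND8 replicate 1 reduced the 12 higher genes over shLuciferase to 6, and no gene fell. The 7 higher genes over shJARID1D became 3 when either shJARID1D library or shZMYND8 replicate 1 was left out, and 4 when shZMYND8 replicate 2 was. In the other direction, the 1 higher gene under shJARID1D over shLuciferase became 6 without shLuciferase replicate 1 and 3 without shLuciferase replicate 2.

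Of 15 genes that release arachidonic acid or control its release, 12 were tested and 2 rose in shZMYND8 over shLuciferase. That share is near the 16.2% of all genes tested that passed. The share of all genes was 5.75% in shJARID1D over shLuciferase and 15.7% in shZMYND8 over shJARID1D. The cytosolic phospholipase PLA2G4C was at 6.16 and 5.22 CPM in the shZMYND8 libraries, 5.88 and 6.06 CPM in the shJARID1D libraries and 1.74 and 0.987 CPM in the shLuciferase libraries. It rose by 2.06 ± 0.28 under shZMYND8 (adjusted p = 0.00169) and by 2.13 ± 0.28 under shJARID1D (adjusted p = 0.00758), against the same shLuciferase libraries. PLA2G4A, the main cytosolic phospholipase of prostaglandin synthesis, was at 5.69 and 4.69 CPM under shZMYND8, 3.28 and 2.93 CPM under shJARID1D and 2.14 and 1.33 CPM under shLuciferase. It rose by 1.58 ± 0.28 under shZMYND8 with an adjusted p of 0.00556, lost without shZMYND8 replicate 1 at 0.0637, and its value under shJARID1D was 0.84 ± 0.29 with an adjusted p of 0.116. PLA2G4C was the only gene of the list that passed under shJARID1D, a call lost without either shJARID1D library (adjusted p up to 0.0662). In shZMYND8 over shJARID1D none was higher and 2 were lower, PNPLA8, a phospholipase of mitochondria and peroxisomes, at -0.64 ± 0.14 (adjusted p = 0.0148), and ANXA1, an inhibitor of phospholipase activity, at -0.52 ± 0.11 (adjusted p = 0.0159), both lost without any of the 4 libraries compared (up to 0.121).

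Prostaglandin synthesis, a list of 13 genes that includes PTGS1, PTGS2 and PTGES, had 10 tested. In shZMYND8 over shLuciferase 3 rose and 1 fell, with a median of 0.58, beside 16.2% of all genes tested that passed. The medians given for this list include PTGS2 and PTGIS, which passed the filter on low counts through groups where they are higher. PTGIS passed it only through the shZMYND8 libraries. It had 16 and 15 fragments under shZMYND8, 9 and 1 under shJARID1D and 2 and 2 under shLuciferase. Besides PTGES, AKR1B1, which can make prostaglandin F2alpha, rose by 0.83 ± 0.13 (adjusted p = 0.00341), and AKR1C3, another prostaglandin F synthase, rose by 1.02 ± 0.27 (adjusted p = 0.0296). PTGES3, the cytosolic synthase better known as the HSP90 co-chaperone p23, had a log2 fold change of -0.66 ± 0.12 (adjusted p = 0.00504). Without shZMYND8 replicate 1 the calls of AKR1C3 (adjusted p up to 0.226) and PTGES3 (adjusted p = 0.0647) were lost, and AKR1C3 was lost also without shLuciferase replicate 2. In shJARID1D over shLuciferase 2 rose, PTGS2 and AKR1C3 (1.11 ± 0.27, adjusted p = 0.043), and FAM213B, a prostaglandin F synthase, fell by 0.80 ± 0.16 (adjusted p = 0.0227), with a median of 0.05. Of all genes tested 5.75% passed there. AKR1C3 did not pass by DESeq2 or when only the groups compared were fitted. Its call was lost without any library but shLuciferase replicate 1. AKR1C3 has related genes that are similar in sequence, and how the authors' counting divided reads between them is not known here. Of 9 prostanoid receptors 4 were tested. PTGER2, a receptor for prostaglandin E2, was at 1.26 and 1.89 CPM under shZMYND8, 4.47 and 3.53 CPM under shJARID1D and 4.55 and 4.51 CPM under shLuciferase. It fell under shZMYND8, with a log2 fold change of -1.51 ± 0.27 (adjusted p = 0.00605, and 0.0721 without shZMYND8 replicate 1), and had a value of -0.18 ± 0.25 under shJARID1D (adjusted p = 0.704). PTGER4, the other receptor that signals through cyclic AMP, was at 9.76 and 10.6 CPM under shZMYND8, 7.54 and 9.54 CPM under shJARID1D and 12.7 and 15.4 CPM under shLuciferase. It fell under shJARID1D by 0.71 ± 0.18 (adjusted p = 0.0484, lost without any library but shLuciferase replicate 1, at up to 0.311, and under 6 other settings, library totals only and limma voom among them) and had a value of -0.46 ± 0.18 under shZMYND8 (adjusted p = 0.105). HPGD, the main enzyme that inactivates prostaglandin E2, had 0 fragments in all 6 libraries, and CBR3, a carbonyl reductase, was the only gene of the breakdown and transport list to pass, by 0.61 ± 0.16 under shZMYND8 (adjusted p = 0.0307, lost without 4 of the 6 libraries) and 0.86 ± 0.16 under shJARID1D (adjusted p = 0.02). Every shJARID1D call over shLuciferase in these lists was lost without either shJARID1D library, where the count of each list was 0.

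**Figure D4:**
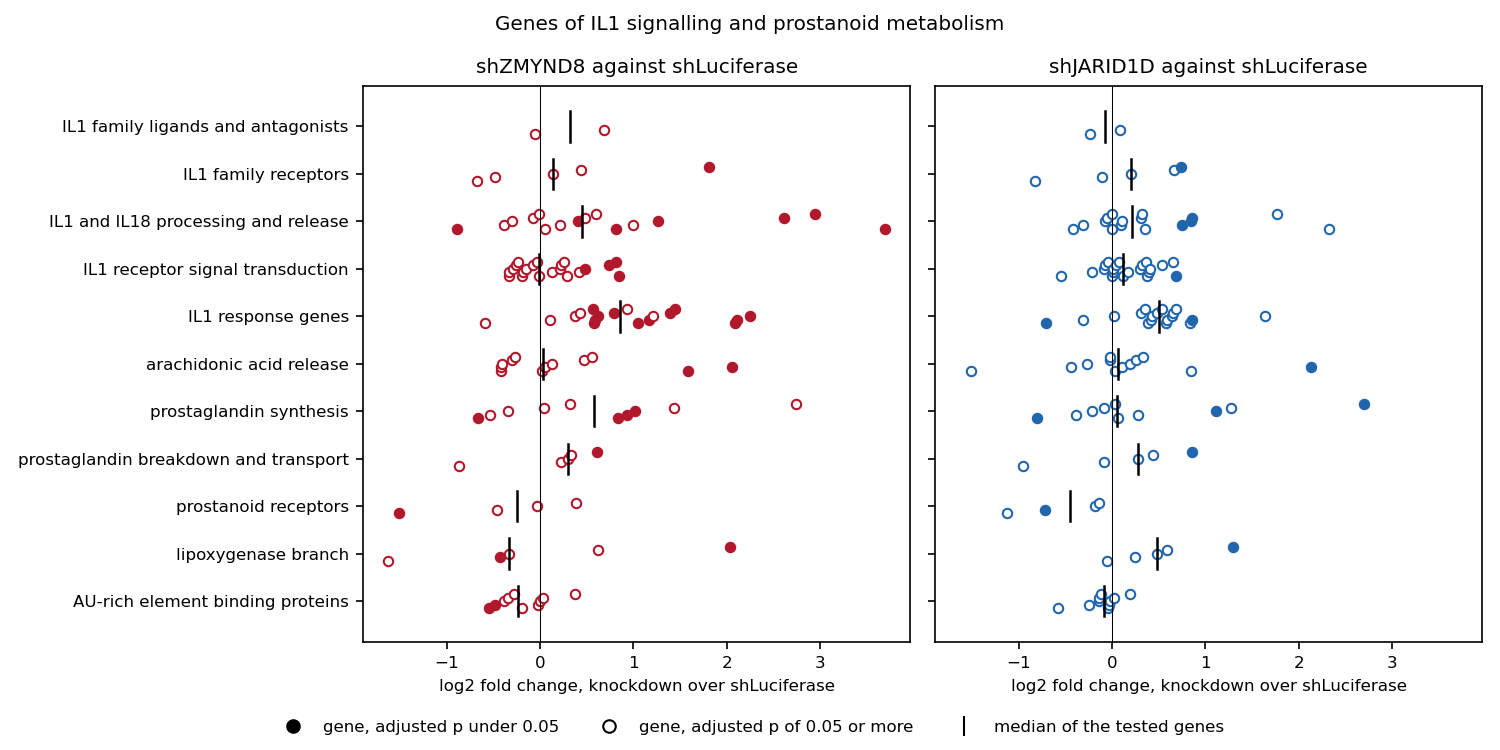
Log2 fold changes of the tested genes of the pathway lists (points, filled where the adjusted p was under 0.05) for shZMYND8 over shLuciferase on the left and shJARID1D over shLuciferase on the right, with the median of each list as a black line. The IL1 response genes lie highest for shZMYND8 over shLuciferase, with a median of 0.86 and 12 of 18 genes higher. Of all genes tested 8.89% were higher.

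The genes whose pattern over the 6 libraries was most like each tested gene were found by the root mean square (RMS) difference of centred log2 CPM, among genes that averaged 5 CPM or more. For IL1RAP these were EPAS1 (0.14), CYP4F11 (0.15) and MBOAT1 (0.16), and 8 of 11475 genes lay within an RMS difference of 0.2, where IL1RAP itself varied by 0.75 about its mean. PTGES was matched by TMEM164 (0.06), PLXNC1 (0.06) and PODXL (0.09), with 199 genes within 0.2. No gene lay within 0.2 of PTGS2, and its nearest were CSRNP1 (0.40), MAPRE3 (0.42) and SFXN3 (0.44). PTGS2 rests on 3 to 30 fragments per library, so part of these distances may be counting error. IL1R1 had CHIC1, ZNF470 and ENAH as its nearest and 1128 genes within 0.2, and IL18, which hardly varied, had TAF8, SENP1 and CTNNB1 and 5609 within 0.2.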

How the data were processed

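The series holds 35 samples of DU145 cells. The 6 RNA libraries were used, and 29 samples of chromatin or input DNA were not analysed here. The deposited Cuffdiff gene table holds expected counts, estimated fragments per gene that carry a scaling by the authors' software: 1 fragment is worth 0.882 to 1.16 by library, and for values under 1000 fragments 84.0% to 84.9% came within 0.05 of whole fragments. Fragments given in the text are these values divided by that worth. Tools named in the submitters' processing notes, without their roles, are Bowtie 1.1.2, TopHat2 2.0.12, edgeR 3.12.0 and Cuffdiff, with the build hg19. Not given in the sources used here are the gene annotation, strandedness and any poly(A) selection. Columns headed Rac7_KO were taken as shZMYND8, since an antibody label gives RACK7 as another name of ZMYND8, and the headers' KO was read as the hairpin knockdown of the labels. The 18 variance columns were not used.

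Deposited counts were rounded, filtered with filterByExpr, scaled by the trimmed mean of M values and tested by quasi-likelihood F tests (edgeR 4.0.16, R 4.3.3), with Benjamini-Hochberg adjustment over 15867 genes and a threshold of 0.05. The fit took in all 6 libraries (3 residual degrees of freedom, common biological coefficient of variation 12.3%). Genes marked HIDATA in any library, 60 in all and none of the 8 genes, were left out. CPM are the deposited counts over the scaled library totals. Ratios of summed fragments have exact 95% intervals. The scripts were tested on simulated data. Alternatives were other scalings, filters and thresholds, DESeq2 1.42.0, limma voom, fits of the groups compared only, a replicate block, leaving out each library, unquantified genes kept at 0 and the deposited scaling undone. Replicate numbers were not used as pairs.

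The 8 genes and the lists (15 lists, 179 genes, 2 matched by a synonym) were chosen with earlier results of these data known. List genes named are up to 3 past the threshold in each direction, list and comparison by smallest adjusted p, and 10 pathway genes named whatever their values. PTGIS is named for how it passed the filter. The list counts under the alternatives were chosen after seeing the data. Promoters come from RefSeq GRCh38.p14, whose gene table also gave overlaps by name.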

Additional observations from a re-analysis of the deposited data

How the results depend on the processing

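Over the 5 tested genes and 3 comparisons, 243 alternative values kept their direction and side of the threshold, 17 lost it, 3 gained it and 4 changed sign. With a library left out, the log2 fold change of IL18 in shZMYND8 over shLuciferase ran from -0.106 to 0.000248 (positive without shZMYND8 replicate 1). In shJARID1D over shLuciferase IL1R1 ran from -0.257 to 0.0521 (positive without shJARID1D replicate 2 and without shLuciferase replicate 1), and PTGES from -0.0544 to 0.132 (negative without shLuciferase replicate 2). None of these 3 had passed in the fit reported. In shJARID1D over shLuciferase the 2 genes called of the 8 became 0 by edgeR without the filter on low counts and 0 at a threshold of 0.01, with 2 at an unadjusted p under 0.05 in both and 2 by DESeq2 at 0.05. They became 1 with a mean count of at least 50, where PTGS2 is not tested, and ranged from 0 to 2 with a library left out.

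Of all genes tested, 2574 passed in shZMYND8 over shLuciferase, 1002 at a threshold of 0.01 and 642 to 3222 with a library left out. In shJARID1D over shLuciferase 912 passed, 204 without the filter, 449 when only the groups compared were fitted, 77 at 0.01 and 16 to 2145 with a library left out. In shZMYND8 over shJARID1D 2490 passed, 1560 without the filter, 4252 when only the groups compared were fitted, 761 at 0.01 and 551 to 4191 with a library left out. With library totals only, 709 rose and 294 fell in shJARID1D over shLuciferase (540 and 335 with upper quartile factors, 469 and 443 in the fit reported), and 1139 were higher and 1393 lower in shZMYND8 over shJARID1D (1376 and 1114 in the fit reported). The causes were not tested.

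Deviations of libraries with the same replicate number correlated at 0.0969, 0.0925 and 0.17, so the numbers were not taken to pair the libraries. With a replicate block 2073 genes passed in shJARID1D over shLuciferase and 3785 in shZMYND8 over shJARID1D, and IL1R1 in shZMYND8 over shLuciferase passed at 0.45 with an adjusted p of 0.0278. Depth limits IL1A, IL1B, PTGS1 and PTGS2.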

Other observations

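Of 10 genes of the lipoxygenase branch, which turns arachidonic acid into leukotrienes, 5 were tested. CYP4F3, which inactivates leukotriene B4, rose by 2.03 ± 0.30 on the log2 scale in shZMYND8 over shLuciferase (edgeR adjusted p = 0.00238) and by 1.30 ± 0.30 in shJARID1D over shLuciferase (adjusted p = 0.0394, lost without either shJARID1D library or shLuciferase replicate 2, at up to 0.215). LTA4H, which makes leukotriene B4, had values of -0.43 ± 0.11 in shZMYND8 over shLuciferase (adjusted p = 0.0252) and -0.37 ± 0.11 in shZMYND8 over shJARID1D (adjusted p = 0.0444), and both calls were lost without any shZMYND8 or shJARID1D library, at up to 0.241.

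Of 10 proteins that bind AU-rich elements, which control the stability of messages such as those of PTGS2 and IL6, all were tested. ELAVL1, which stabilises such messages, fell by 0.55 ± 0.11 on the log2 scale in shZMYND8 over shLuciferase (adjusted p = 0.011, lost without either shZMYND8 library at up to 0.103). KHSRP, which promotes their decay, fell by 0.48 ± 0.13 (adjusted p = 0.0335, lost without 5 of the 6 libraries at up to 0.233).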
